A study of Mus musculus with 25 samples.

Results

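The genes that encode receptors for glutamate and GABA, the main excitatory and inhibitory transmitters of the brain, were followed in 25 RNA-seq libraries labelled as mouse oligodendrocyte precursor cells. A gene was a member if its symbol named a subunit of the AMPA (Gria), kainate (Grik) or NMDA (Grin1, Grin2 and Grin3) receptors, a metabotropic glutamate receptor (Grm), a GABA-A receptor subunit of the alpha, beta, gamma, delta or rho class (Gabra, Gabrb, Gabrg, Gabrd, Gabrr) or a GABA-B receptor subunit (Gabbr). This rule used names and no measured value. It found 42 of the 23351 genes in the deposited table: 4 AMPA, 5 kainate, 7 NMDA, 8 metabotropic, 13 GABA-A, 3 rho and 2 GABA-B genes. The cells had been cut from mouse brain by laser capture microdissection, which takes chosen areas from a tissue section. The sources used here do not say by what marker or shape the areas were picked. The groups were 10 libraries labelled Control, 8 labelled Day 5 and 7 labelled Day 15, the days being those of white matter stroke, an ischemic injury of myelinated fibre tracts. The strain, sex and age of the mice, the way the stroke was made and the handling of the controls are not in the sources used here. The labels do not tie libraries to animals, so p-values measure the spread between these libraries, and they come out too small where an animal gave more than 1 library.

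Ionotropic glutamate receptors are cation channels built of AMPA, kainate or NMDA subunits, and NMDA receptors need the subunit that Grin1 encodes. Metabotropic glutamate receptors and GABA-B receptors signal through G proteins, and GABA-B receptors form from the products of both Gabbr1 and Gabbr2. GABA-A receptors are chloride channels that usually combine alpha, beta and a further subunit. Oligodendrocyte precursor cells are dividing glia that give rise to myelinating cells, and they are known to receive synaptic input from axons through AMPA and GABA-A receptors. Glutamate acting on AMPA and kainate receptors is a known cause of injury to cells of this lineage in ischemia.

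Values are named RPKM, a unit that scales reads to gene length and to the library. The sources used here do not say how it was computed, so setting levels of different genes side by side rests on that name. The read depth behind the values is unknown. The RPKM sum of a library ran from 7583 to 127878, and the ribosomal RNA precursor Rn45s took 73.4% of it in Control replicate 5 and 68% in Day 5 replicate 10. The precursor marker Pdgfra had medians of 0.607 RPKM in controls, 4.71 at Day 5 and 0.643 at Day 15. The precursor marker Cspg4 had medians of 0.00536, 0.464 and 0.283 RPKM in the same order and reached 1 RPKM in 1 of 10 control libraries. The summed level of 15 precursor markers ran from 11.1 to 117 RPKM in controls, from 21.9 to 119 at Day 5 and from 16.6 to 284 at Day 15, while Mbp, a myelin gene of mature oligodendrocytes, had medians of 139, 75.3 and 32.5 RPKM. The sum of 18 microglia and macrophage markers ran from 19.9 to 155 RPKM in controls, from 182 to 2408 at Day 5 and from 126 to 1983 at Day 15. Of these 18 markers 9 passed the limma test as higher at Day 5 than in controls, each under 15 to 39 of 42 alternative settings. The microglial gene Ctss had medians of 4.67, 64.9 and 44.5 RPKM in the same order, the astrocyte genes Gfap and Slc1a2 had 7.13, 19.6 and 15.1 RPKM and 27.6, 10.7 and 41.9 RPKM, and the neuronal gene Snap25 had 3.40, 0.608 and 0.938 RPKM. No marker passed in the lists for precursors (10 tested), neurons (4), astrocytes (9), mature oligodendrocytes (13) or endothelial and mural cells (3) in any comparison. Of all genes tested, 6.04% were called at Day 5, 0.0926% at Day 15 and 0% between the days. At these shares lists of this size would hold few calls or none. The sum of 17 neuron markers ran from 5.68 to 25.3 RPKM in controls, from 2.89 to 10.8 at Day 5 and from 2.85 to 113 at Day 15, where replicates 3 (113) and 6 (81.8) stood apart. No gene of the 6 marker lists was at 0 in every library of a group, although the neuronal filament gene Nefl had a median of 0 at Day 15. In such captured areas, fewer cells of a type and less RNA per cell cannot be told apart, and the part of these other cell types in the receptor values was not tested.

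Most receptor genes were near the lower end of the scale. All 42 were above 0 in at least 1 library, yet 287 of the 1050 values were 0 and 123 (11.7%) reached 1 RPKM, against 13.6% of the values of all genes. No library gave 1 RPKM for 17 members, 1 library did for 8, and 3 to 6 libraries did for 9. The remaining 8 members reached 1 RPKM in at least 7 libraries, which was the filter for the test: Gria2 (14 libraries), Grm3 (13), Grik2 (12), Gabbr1 and Grm5 (10 each), Gria3 (9), Gria4 and Grik3 (7 each). They are 19.0% of the members, beside 18.5% of all genes that passed the same filter. Gria1 lay just outside it, with 5 libraries.

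**Figure D1:**
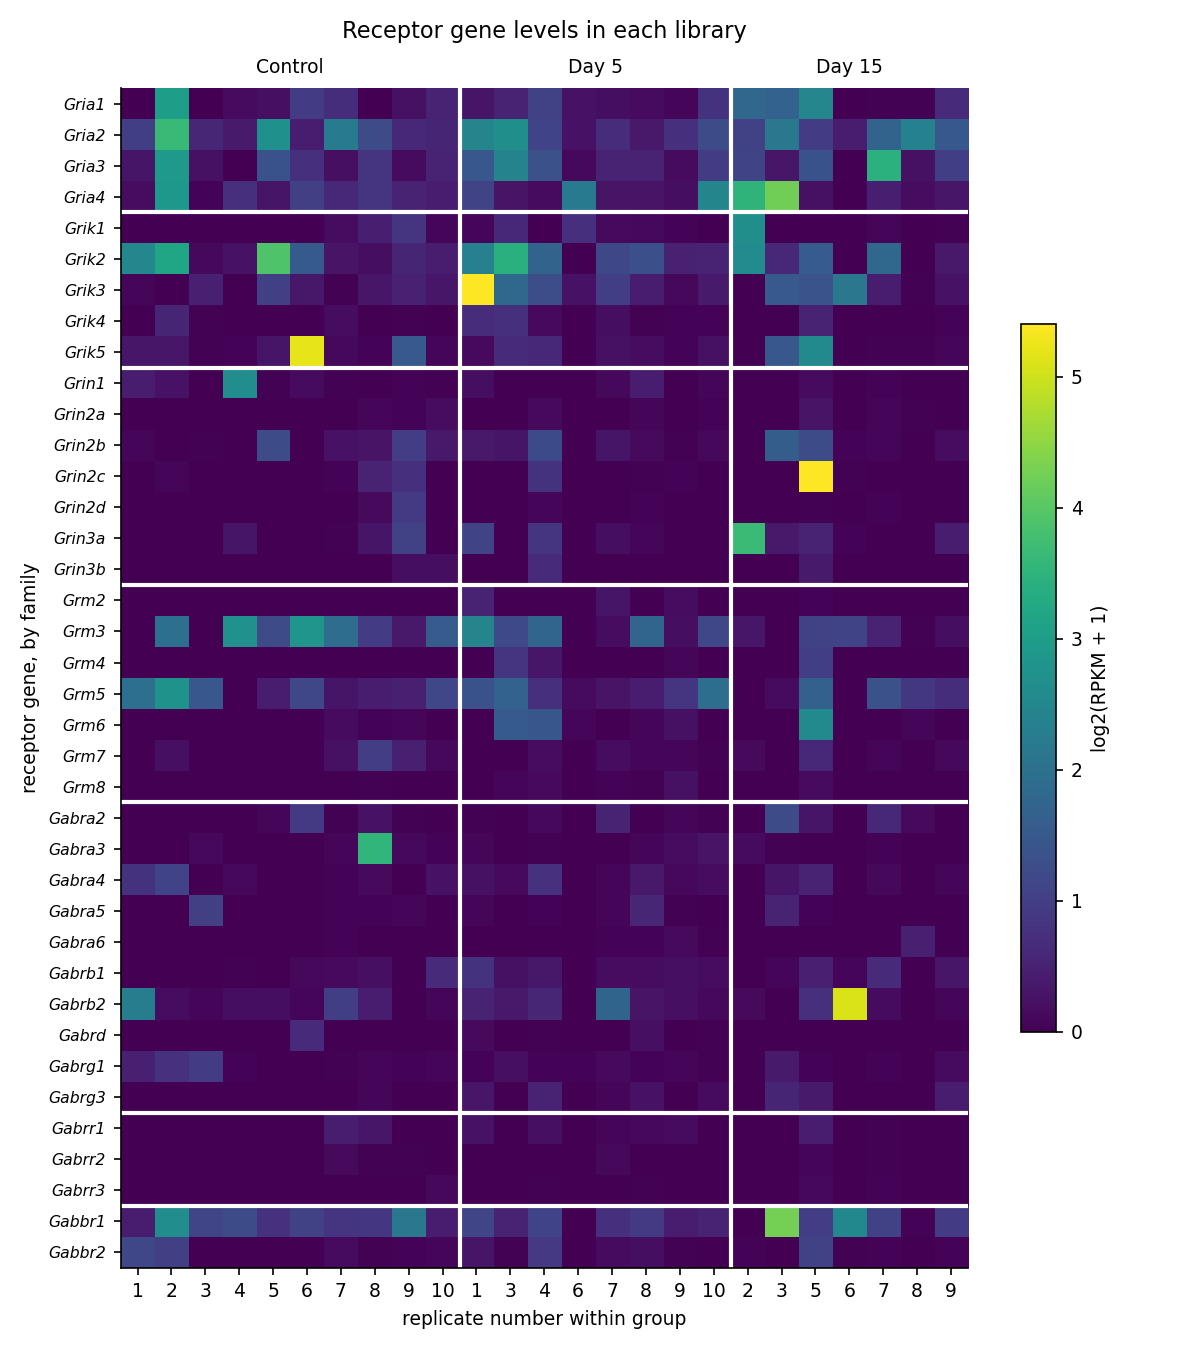
Level of 38 of the 42 receptor genes (rows, by family, parted by white lines) in each of the 25 libraries (columns, by group and replicate number), as log2(RPKM + 1) by colour. Most cells are dark, and bright cells such as Grik3 in Day 5 replicate 1 (41.2 RPKM) stand alone in their group.

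The number of receptor genes at 1 RPKM or more was 2 at the lowest, 3.5 at the median and 11 at the highest in controls. It was 0, 3.5 and 10 at Day 5, and 1, 5 and 12 at Day 15. The groups overlapped over nearly their whole range. At a level of 0.5 RPKM the medians were 7.5, 5.5 and 7, and after scaling to a common sum without Rn45s 6.5, 3 and 5, with the controls highest in both. At 2 RPKM they were 2, 2 and 3, and above 0 they were 22.5, 37.5 and 29, so the order of the groups changed with the level. Only the level of 1 RPKM was set beside all genes, whose medians per library were 2329.5, 4006.5 and 2509. As a mean share, 10.5% ± 6.66 (SD over 10 libraries) of the receptor genes reached 1 RPKM among controls, 11.0% ± 8.63 (SD over 8 libraries) by Day 5 and 14.3% ± 9.12 (SD over 7 libraries) by Day 15, beside 10.6% ± 3.81, 18.1% ± 6.40 and 12.8% ± 5.34 of all genes. Receptor genes thus had the lower mean share at Day 5, and the lower share in each Day 5 library but replicate 4 (21.4% beside 20.9%). Both shares come from the same libraries, so their SDs, which overlapped in every group, do not measure the difference. That difference was not tested. Receptor genes above 0 numbered 19 to 23 in Control replicates 1 to 6 and 33 to 40 in Control replicates 7 to 10, a gap within the controls that the labels do not account for.

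**Figure D2:**
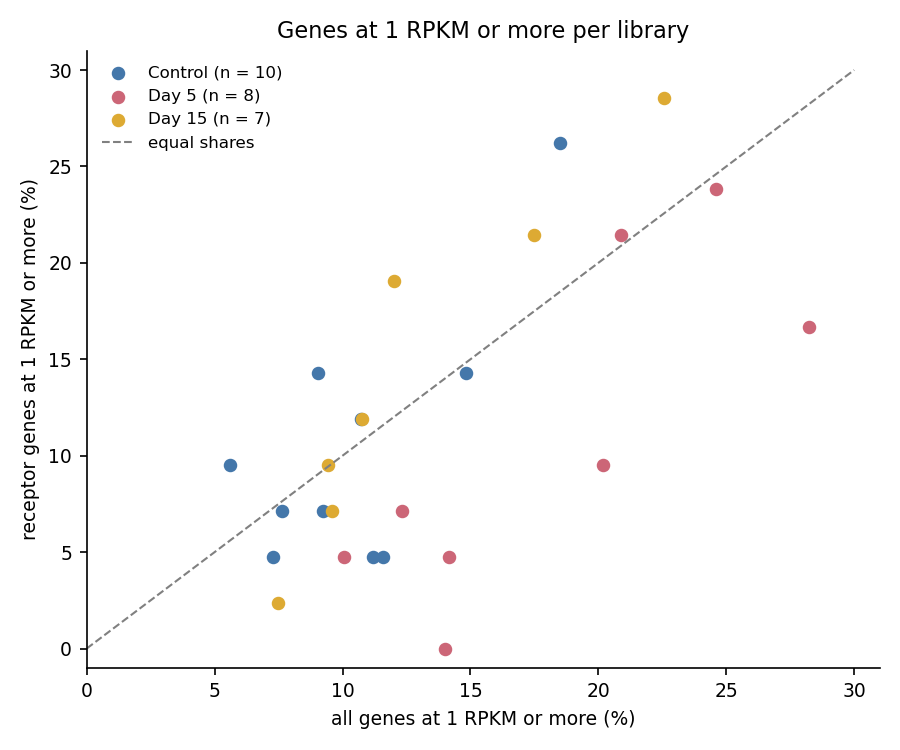
Share of the 42 receptor genes (vertical axis, %) and share of all genes (horizontal axis, %) at 1 RPKM or more in each library, coloured by group, with a dashed line where both are equal. Day 5 libraries run from 0% to 23.8% of receptor genes and mostly lie below the line, while Control replicate 2 (26.2%) and Day 15 replicate 5 (28.6%) are the highest of their groups.

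AMPA, metabotropic and kainate receptors were the families found most widely. At least 1 AMPA gene reached 1 RPKM in 17 of 25 libraries and at least 2 did in 11. The same counts were 16 and 8 libraries for metabotropic genes and 15 and 8 for kainate genes. These families hold 4, 8 and 5 genes in that order, and a family of more genes has more chances to reach the level. By group, at least 1 AMPA gene did so in 6 of 10 controls, 5 of 8 libraries at Day 5 and 6 of 7 at Day 15. For metabotropic genes the libraries were 8, 5 and 3 in the same order. Gria2 encodes the subunit that, once edited, keeps calcium out of the channel. Its lowest, median and highest levels were 0.309, 0.764 and 11.6 RPKM in controls, 0.203, 0.891 and 5.44 at Day 5, and 0.323, 1.82 and 4.18 at Day 15. The group means were 2.53 ± 3.64 (SD, n = 10), 1.77 ± 2.03 (SD, n = 8) and 2.02 ± 1.40 RPKM (SD, n = 7), so that every difference between them was smaller than the spread within a group. Gria2 had the highest level of the 4 AMPA genes in 15 libraries: 8 of 10 controls, 4 of 8 at Day 5 and 3 of 7 at Day 15. Gria4 led in 6 libraries, Gria3 in 3 and Gria1 in 1. Gria2 made up 43.6% of the summed AMPA level in the median control, 35.7% at the Day 5 median and 18.2% at the Day 15 median, with ranges of 11.7% to 73.6%, 4.79% to 66.5% and 7.16% to 93.3%, which overlapped throughout. The leading gene and the share were also read in libraries where no AMPA gene reached 1 RPKM. The 93.3% was that of Day 15 replicate 6, such a library, with an AMPA sum of 0.346 RPKM.

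The other AMPA subunits form channels with or without the Gria2 product. Gria1 ran from 0.000270 through a median of 0.180 to 7.18 RPKM in controls, from 0.0670 through 0.214 to 1.07 at Day 5, and from 0.0120 through 0.584 to 4.67 at Day 15. Gria3 ran from 0.0122 through 0.333 to 6.52 RPKM in controls, from 0.0793 through 0.700 to 4.32 at Day 5, and from 0.0113 through 1.02 to 9.97 at Day 15. Its Day 15 maximum came from replicate 7, and the next value there was 1.58 RPKM. Gria4 ran from 0.0421 through 0.487 to 6.36 RPKM in controls and from 0.111 through 0.218 to 4.54 at Day 5. At Day 15 Gria4 was at 17.7 RPKM in replicate 3 and 10.3 in replicate 2, at 0 in replicate 6 and between 0.128 and 0.374 in the other 4 libraries. Replicate 3 had the highest neuron marker sum of all libraries (113 RPKM) and replicate 2 the lowest (2.85). The part of neuronal RNA in these Gria4 values was not tested. Control replicate 2 was the highest control for Gria1, Gria2, Gria3 and Gria4 alike, with an AMPA sum of 31.7 RPKM beside a control median of 2.27. That library also had the highest precursor marker sum of the controls (117 RPKM) and the most genes at 1 RPKM (4320), and the part of either in its AMPA level was not tested.

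**Figure D3:**
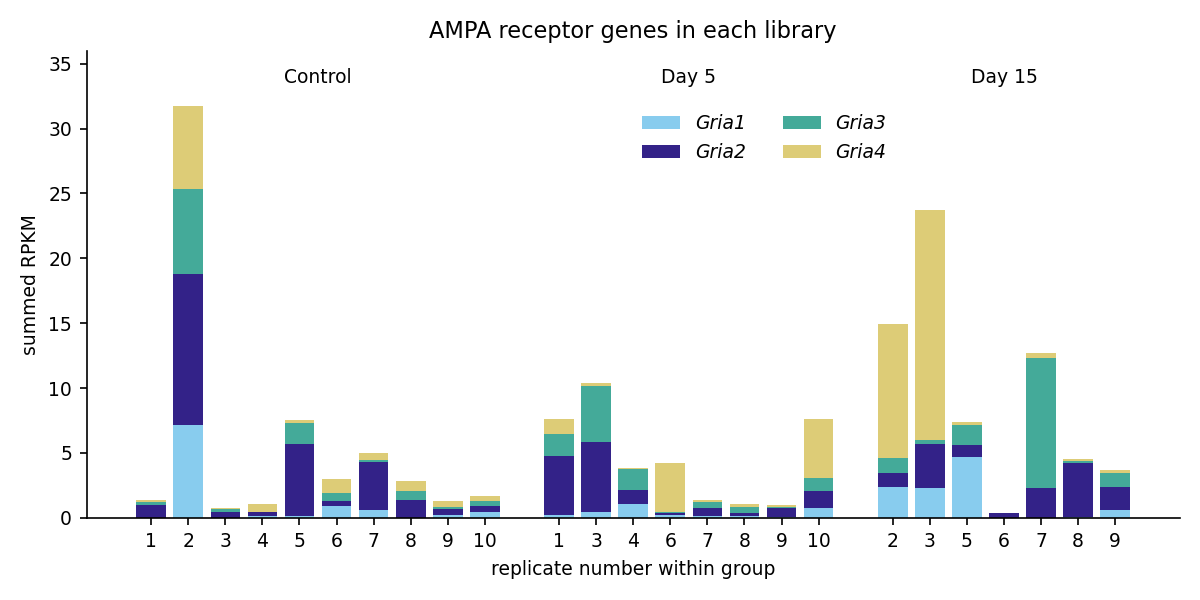
Stacked RPKM of the 4 AMPA receptor genes in each library, by group and replicate number. Control replicate 2 (31.7 RPKM in all) and Day 15 replicate 3 (23.7) are the tallest bars, the first made of all 4 genes and the other mostly of Gria4.

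Kainate receptors were represented by Grik2 and Grik3, which encode subunits that can form channels on their own. Grik2 ran from 0.0762 through a median of 0.406 to 14.2 RPKM in controls, from 0.00329 through 1.36 to 9.83 at Day 5, and from 0.00634 through 0.541 to 5.07 at Day 15. Its means were 3.02 ± 4.71, 2.48 ± 3.24 and 1.48 ± 1.86 RPKM (SD, n = 10, 8 and 7), each below its own spread. Grik3 ran from 0 through 0.250 to 1.02 RPKM in controls, from 0.0765 through 0.658 to 41.2 at Day 5, and from 0.00714 through 0.350 to 3.41 at Day 15. The 41.2 RPKM of Day 5 replicate 1 made up 87.6% of the Day 5 sum, and the next library had 2.54. The Day 5 mean was 5.88 ± 14.3 RPKM (SD, n = 8) with that library and 0.837 ± 0.894 without it, beside 0.268 ± 0.306 RPKM (SD, n = 10) in controls. Day 5 replicate 1 had the highest mature oligodendrocyte marker sum of its group (1345 RPKM), while its precursor marker sum of 92.9 RPKM was below the 119 of Day 5 replicate 3. The part of these cells in its Grik3 level was not tested.

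Grik5 encodes a subunit that needs another kainate subunit to form a channel. It stood at 35.8 RPKM in Control replicate 6, which was 92.7% of the control sum. Elsewhere in the controls it ran from 0.0169 to 1.86 RPKM, with a median of 0.153 over all 10, and its medians were 0.159 at Day 5 and 0.0278 at Day 15, with highest values of 0.574 and 4.94. Grik1 reached 1 RPKM only in Day 15 replicate 2, at 5.40, and was at 0 in 6 of 10 controls. Grik4 stayed under 1 RPKM in every library. At least 1 kainate gene reached 1 RPKM in 15 libraries.

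NMDA receptor genes were sparse. Grin1, the obligatory subunit, reached 1 RPKM only in Control replicate 4, at 5.25, and was at 0 in 5 libraries. Any Grin2 or Grin3 gene reached 1 RPKM in 7 libraries, and in none of these did Grin1. Grin2c stood at 41.2 RPKM in Day 15 replicate 5, which was 99.9% of the Day 15 sum, and the next value there was 0.0158 RPKM. Its medians were 0 RPKM in controls, 0.00669 at Day 5 and 0.00651 at Day 15. Its highest values in controls and at Day 5 were 0.670 and 0.742. Grin3a, a subunit known from precursor cells, was at 11.9 RPKM in Day 15 replicate 2, 91.2% of the Day 15 sum, with a next value of 0.459. Its median was 0 RPKM in controls, 0.0421 at Day 5 and 0.290 at Day 15. Its highest values in controls and at Day 5 were 1.06 and 1.16. Day 15 replicate 2 had the highest precursor marker sum of all libraries (284 RPKM) and the lowest neuron marker sum of all (2.85). It also had the highest astrocyte marker sum at Day 15 (346 RPKM), a mature oligodendrocyte sum of 582 and a microglia and macrophage sum of 694, and the part of any of these cells in its Grin3a level was not tested. Grin2b reached 1 RPKM in 4 libraries, up to 2.00 in Day 15 replicate 3. Grin2a, Grin2d and Grin3b stayed under 1 RPKM throughout.

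Of the metabotropic receptors, Grm3 and Grm5 passed the filter. Grm3 encodes a receptor that lowers cyclic AMP. It ran from 0.00331 through a median of 1.67 to 6.02 RPKM in controls, from 0 through 1.24 to 4.46 at Day 5, and from 0.00860 through 0.252 to 1.16 at Day 15. It reached 1 RPKM in 6 of 10 controls, 5 of 8 libraries at Day 5 and 2 of 7 at Day 15. Its means were 2.19 ± 2.19 (SD, n = 10), 1.50 ± 1.53 (SD, n = 8) and 0.445 ± 0.489 RPKM (SD, n = 7). The groups overlapped, since 2 controls lay under 0.02 RPKM, and the highest Day 15 library lay below the control median. Grm5, whose product raises calcium in the cell, ran from 0.00909 through 0.792 to 5.83 RPKM in controls, from 0.117 through 0.708 to 2.85 at Day 5, and from 0 through 0.630 to 2.15 at Day 15.

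Grm6, known from retinal bipolar cells, reached 1 RPKM in 3 libraries, at 1.89 and 1.73 in Day 5 replicates 3 and 4 and at 4.92 in Day 15 replicate 5. Its highest control value was 0.119 RPKM. Grm4 was at 0 in 9 of 10 controls and reached 1.01 RPKM in Day 15 replicate 5. Grm2 was at 0 in all 10 controls, above 0 in 5 of 8 libraries at Day 5 with a highest value of 0.427 RPKM, and above 0 in 3 of 7 at Day 15 with a highest value of 0.0344. An exact 0 at such levels can be a transcript missed in amplification. Grm7 and Grm8 stayed under 1 RPKM, and the highest value of Grm7 was 0.961 RPKM in Control replicate 8.

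No GABA-A gene passed the filter. At least 1 of the 13 reached 1 RPKM in 11 libraries and at least 2 did in 4, while the 3 rho genes never did. Gabrb2 ran from 0.0122 through 0.138 to 3.79 RPKM in controls, from 0 through 0.254 to 2.36 at Day 5 and from 0 through 0.0997 to 33.3 at Day 15. The highest value, in Day 15 replicate 6, was 97.3% of its group sum, and the next value there was 0.661 RPKM. Day 15 replicate 6 had 56.0 RPKM of the neuronal gene Snap25 and a neuron marker sum of 81.8, below the 113 of Day 15 replicate 3. The part of neuronal RNA in the Gabrb2 level was not tested. Gabra3 stood at 10.7 RPKM in Control replicate 8, 97.5% of its group sum, against a control median of 0.0256, and its highest values at Day 5 and Day 15 were 0.223 and 0.109. Gabra5 reached 1 RPKM in 1 library.

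GABA-B receptors were represented mainly by Gabbr1, which encodes the subunit that binds GABA. It ran from 0.334 through a median of 0.954 to 5.23 RPKM in controls, from 0.00140 through 0.543 to 1.19 at Day 5, and from 0.00549 through 0.968 to 18.2 at Day 15. It was above 0 in all 25 libraries. The Day 15 mean was 3.70 ± 6.58 RPKM (SD, n = 7) with replicate 3 and 1.29 ± 1.76 without it, beside 1.53 ± 1.57 RPKM (SD, n = 10) for controls and 0.631 ± 0.408 (SD, n = 8) for Day 5. Day 15 replicates 3 and 6, with Gabbr1 at 18.2 and 4.74 RPKM, were the 2 libraries with the highest neuron marker sums, and the part of neuronal RNA in these values was not tested. Gabbr2, whose product couples the receptor to its G protein, reached 1 RPKM in 3 libraries, up to 1.21 in Control replicate 1.

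**Figure D4:**
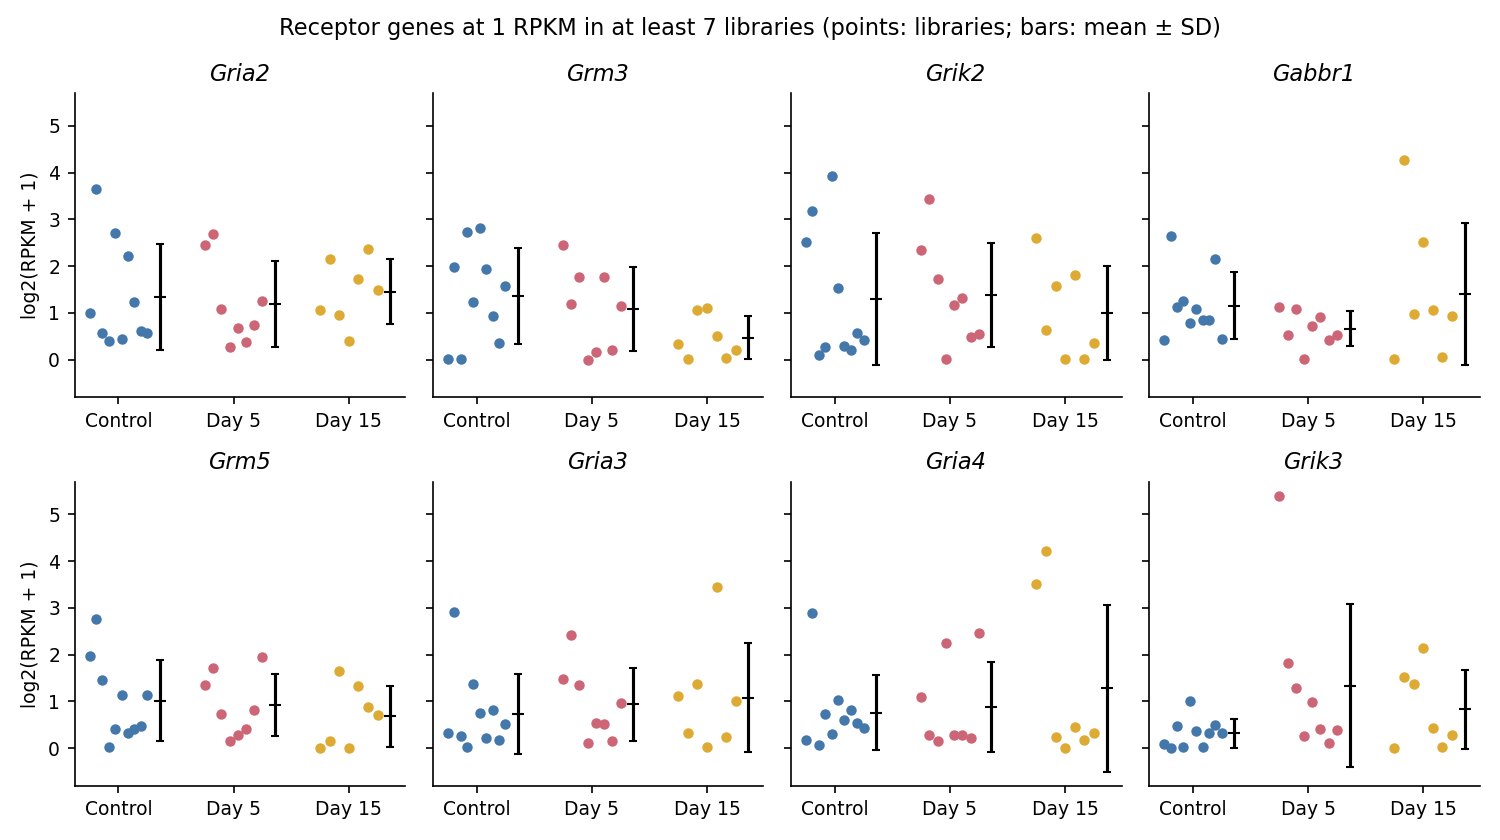
Levels of the 8 receptor genes that reached 1 RPKM in at least 7 libraries, as log2(RPKM + 1), with 1 point per library and the group mean ± SD beside the points (Control n = 10, Day 5 n = 8, Day 15 n = 7). The groups overlap for every gene, and single high points such as Grik3 at Day 5 (41.2 RPKM) and Gabbr1 at Day 15 (18.2 RPKM) widen the bars.

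The comparison of Day 5 with control asked which genes differed in the early phase after the stroke. No receptor gene passed: limma called 0 of the 8 tested at a Benjamini-Hochberg adjusted p under 0.05, where 6.04% of the 4319 genes tested were called, and 1 of the 8 (Grik3) had an unadjusted p under 0.05, where 26% of all genes did. The smallest adjusted p belonged to Grik3, whose change was 1.02 (SE 0.45, 95% interval 0.11 to 1.93) on the log2(RPKM + 1) scale, with a limma adjusted p of 0.141. Without Day 5 replicate 1 the Grik3 change was 0.44, with an adjusted p of 0.421, and it was 1.87 within replicate numbers 1 to 6 and 0.18 within 7 to 10. Gabbr1 changed by -0.49 (SE 0.47, 95% interval -1.43 to 0.45). The changes of the other 6 lay between Grm3 at -0.27 and Gria3 at 0.21. The 8 changes had a median of -0.00, while the median over all genes tested was 0.61, a shift that quantile normalization took to -0.02. Under that normalization the median of the 8 was -0.61, 1 of the 8 was above 0, and Gabbr1 (-1.10), Grm3 (-0.90), Gria2 (-0.84) and Grm5 (-0.76) had an unadjusted p under 0.05, against 12.2% of all genes; their limma adjusted p ran from 0.232 to 0.407 and 0 of the 8 were called, where 0.463% of all genes were. Upper-quartile scaling, scaling to a common sum without Rn45s and a covariate for detected genes gave medians of -0.49, -0.49 and -0.70 for the 8. In each of these fits 1 of the 8 had an unadjusted limma p under 0.05, beside 534, 564 and 447 of the 4319 genes. For the values as deposited, the SE of the 8 changes ran from 0.40 to 0.55, and 7 of the 8 intervals held 0.

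The comparison of Day 15 with control asked the same of the later phase. limma called 0 of the 8, where 0.0926% of all genes tested were called, and 0 of the 8 had an unadjusted p under 0.05, where 8.87% of all genes did. The lowest change was that of Grm3, at -0.89 (SE 0.47, 95% interval -1.83 to 0.05) with a limma adjusted p of 0.585. It was -0.83 within replicate numbers 1 to 6 and -0.96 within 7 to 10, and from -1.04 to -0.73 when any 1 library was left out. The highest were Gria4 at 0.52 (SE 0.53) and Grik3 at 0.51 (SE 0.47). With any 1 library left out, Gria4 ran from 0.03 to 0.76 and Grik3 from 0.30 to 0.65. Gabbr1 changed by 0.25 (SE 0.49), and by -0.55 without Day 15 replicates 3 and 6, the libraries with high neuron marker sums. The median of the 8 was 0.18, beside 0.17 over all genes. All 8 intervals held 0.

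The comparison of Day 15 with Day 5 shares its libraries with the other comparisons. limma called 0 of the 8, where 0% of all genes tested were called, and 0 of the 8 had an unadjusted p under 0.05, where 14.7% of all genes did. Gabbr1 had the highest change, 0.74 (SE 0.51, 95% interval -0.29 to 1.77), and Grm3 the lowest, -0.62 (SE 0.49, 95% interval -1.60 to 0.36), with limma adjusted p of 0.511 and 0.577. The median of the 8 was -0.06, beside -0.44 over all genes. For 0 of the 8 were the libraries of the groups apart in any of the 3 comparisons, beside 0.533%, 0.0926% and 0.301% of all genes tested.

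**Figure D5:**
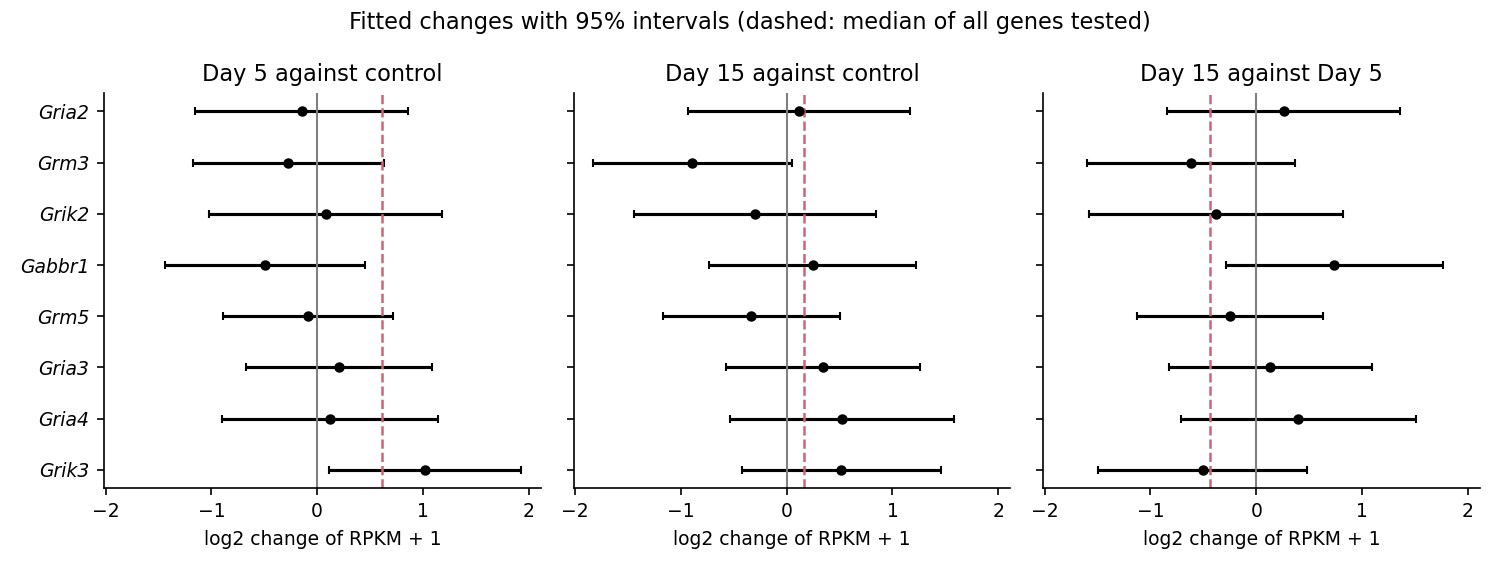
Fitted change of each tested receptor gene with its 95% interval, in the 3 comparisons, on the log2(RPKM + 1) scale; the dashed line is the median over all 4319 genes tested (0.61, 0.17 and -0.44). The interval of Grik3 at Day 5 (0.11 to 1.93) is the only one that leaves out 0.

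The 34 members below the filter were fitted with no filter, over 22610 genes. limma then called 0 of 42 members in each comparison, where 0.106%, 0% and 0% of all genes were called, and 2, 1 and 1 members had an unadjusted p under 0.05 at Day 5, Day 15 and between the days, where 13.7%, 3.62% and 8% of all genes did. Among members below the filter, the smallest p at Day 5 belonged to Grm2 with a change of 0.13 (adjusted p 0.264), Grm8 with 0.06 (0.287) and Gabrg3 with 0.17 (0.379). At Day 15 they belonged to Gabrg3 with 0.19, Grin3a with 0.56 and Gabra6 with 0.06, all with an adjusted p of 0.942. Between the days they belonged to Grm2 with -0.12 (adjusted p 0.607), Grm8 with -0.04 (0.661) and Gabra2 with 0.23 (0.661). Grm2, Grm8, Gabrg3 and Gabra6 stayed below 1 RPKM in all libraries, and the log2(RPKM + 1) scale understates changes of low genes.

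Genes for proteins that work with these receptors were read against the 6.04%, 0.0926% and 0% of all genes called at Day 5, at Day 15 and between the days, shares at which lists of this size would hold few calls or none. Of 16 AMPA and kainate auxiliary proteins 3 were tested and 0 passed in any comparison, the smallest p being those of Olfm1 (-0.39) and Neto2 (0.25) at Day 5, Olfm1 (-0.78) and Cacng5 (0.50) at Day 15, and Cacng5 (0.50) and Olfm1 (-0.38) between the days. Of 20 scaffold and clustering proteins 9 were tested and 0 passed, led by Homer1 (0.84, limma adjusted p 0.141) and Dlg1 (0.70) at Day 5, Nlgn2 (0.86) and Homer1 (0.52) at Day 15, and Dlg1 (-1.03) and Dlg2 (-0.57) between the days. Of 12 genes for GABA transport, GABA enzymes and chloride carriers 3 were tested and 0 passed, led by Slc12a2, which imports chloride, at 1.10 (limma adjusted p 0.216), -0.75 and -1.86 (0.223) in the 3 comparisons. Abat, which breaks down GABA, was at 0.12 between the days. Of 10 related receptor genes outside the rule 2 were tested and 0 passed, Grina (0.65, 0.55 and -0.10) and Glrb (0.48, 0.24 and -0.24).

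The genes for glutamate transport and glutamate enzymes gave 1 call. Of 15 genes 8 were tested, and 1 rose at Day 5 and 0 at Day 15 or between the days. The 1 of 8 at Day 5 stands beside 6.04% of all genes called, too few genes to set the list apart. The gene was Slc38a1, a neutral amino acid carrier that takes up glutamine. It ran from 0.0447 through a median of 0.345 to 3.88 RPKM in controls and from 1.55 through 3.59 to 48.1 at Day 5, with the highest value in replicate 8 and the next at 6.10. Its change was 1.86 (SE 0.56) with a limma adjusted p of 0.0371, beside a median of 0.88 for the 8 genes and 0.61 for all genes tested. Slc38a1 was called under 23 of 42 alternatives. The call was lost when Day 5 replicate 3 or 8 or Control replicate 1, 3, 4, 6, 7, 8, 9 or 10 was left out, with adjusted p from 0.0515 to 0.0768. Leaving out Day 5 replicate 8 took the change to 1.42. The call was also lost under upper-quartile scaling (1.38), quantile normalization (1.30) and scaling to a common sum (1.46), with adjusted p of 0.263, 0.285 and 0.210. It was further lost with no filter (1.86, limma adjusted p 0.171), also with quantile (1.43, 0.797) or upper-quartile scaling (1.38, 0.717), with the number of detected genes as covariate (1.90, 0.282), and within replicate numbers 1 to 6 (1.26, 0.396) and 7 to 10 (2.58, 0.127). Among those not called were Glul, which makes glutamine from glutamate, at -1.99 between the days (limma adjusted p 0.258), and, at Day 15, the astrocyte transporter Slc1a2 at 1.14 (0.679) and Glud1 at 1.10 (0.719).

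Promoters were compared as a feature that the naming rule did not use. RefSeq promoters of build GRCm38.p6, each of 300 bases around a gene's start, were matched by symbol for 29 of the 42 members, and the motif CG was counted on the strand of the gene, which gives the same count on the other strand. Where a gene had several promoters, the one with the most CG was taken. The 6 matched genes that passed the filter held 11 to 50 CG with a median of 22, the 23 others held 0 to 46 with a median of 12, and 14 of these 23 lay within the range of the former. All 32851 promoters of the table had a median of 7, but they were taken without that choice within a gene and so are not a like set. The 2 shown are the matched member that reached 1 RPKM in the most libraries, Gria2 (chr3:80802786-80803085, minus strand, 26 CG, a number that 16.9% of all promoters reach), and the one with the lowest maximum, Gabrr3 (chr16:59407132-59407431, plus strand, 3 CG, reached by 76.7%). Capitals mark CG.
Gria2: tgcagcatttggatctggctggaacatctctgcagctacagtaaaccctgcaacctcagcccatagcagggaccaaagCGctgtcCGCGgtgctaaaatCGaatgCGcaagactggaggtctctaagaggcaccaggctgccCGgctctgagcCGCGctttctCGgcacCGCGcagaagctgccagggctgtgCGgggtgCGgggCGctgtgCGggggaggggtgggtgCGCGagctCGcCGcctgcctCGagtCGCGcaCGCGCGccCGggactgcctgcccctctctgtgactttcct
Gabrr3: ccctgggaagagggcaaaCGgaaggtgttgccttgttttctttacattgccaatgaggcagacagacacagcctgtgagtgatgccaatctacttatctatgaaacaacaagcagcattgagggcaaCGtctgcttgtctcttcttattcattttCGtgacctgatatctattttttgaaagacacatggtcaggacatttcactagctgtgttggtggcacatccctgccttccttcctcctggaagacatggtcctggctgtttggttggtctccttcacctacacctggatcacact
The first shows CG through most of its length and the other at 3 places. The match is a description of these windows, and its relation to the levels was not tested.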

How the data were processed

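Libraries were grouped and numbered as their labels say. The labels' protocols name cDNA amplification with a Nugen Ovation kit and paired-end reads. The submitters' processing notes list CASAVA 1.8.3, STAR 2.1.4a, HTSeq and the mouse build mm9. The authors deposited RPKM values, 1 column per library, and the sources used here do not say how RPKM was computed or to which reads it was scaled. Amplification of little RNA drops low transcripts at random, and without stated strand overlapping genes cannot be parted. Values did not step in whole reads, so no counts were recovered and no counting interval is given. The number of unused columns was 0.

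Genes that reached 1 RPKM in 7 libraries or more (4319 of 23351) were taken as log2(RPKM + 1), and limma 3.58.1 (R 4.3.3) was run on the 3 groups in 1 model (trend and robust, two-sided). A Benjamini-Hochberg adjusted p under 0.05 over all genes tested was a call. The fit was also run on simulated, normally spread log2 values. These lack the lone high values and the shift over all genes seen here, so they do not test how the fit handles them. Python 3.11.15 with pandas 2.3.3 gave the descriptions.

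The members and the lists of other genes were chosen with earlier results of these data known. All members may be named. Values per group are given for those with a group mean of at least 1 RPKM, statistics for those tested and for the 3 smallest p of the others, and the 2 smallest p of each pathway list, plus Snap25, Nefl, Pdgfra, Cspg4, Gfap, Slc1a2, Mbp and Ctss. Marker lists are given by counts and sums. Other members with values were named after these were seen. A few of the genes that this rule takes are counted but not reported here by name.

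Alternatives were another pseudocount (0.1), fits without the filter or with genes of a mean of 1 RPKM or more, scaling by upper quartile, by quantiles or to a common sum without Rn45s, a replicate block, covariates for detected genes and for replicate numbers 1 to 6 against 7 to 10, library weights, the compared groups alone and leaving out each library. Added after seeing the data were fits within either number range, without libraries of over 50% Rn45s, without Day 15 replicates 3 and 6, and without the filter but with quantile or upper-quartile scaling.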

Additional observations from a re-analysis of the deposited data

Results flagged for a closer look

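Among 14 receptor genes with a group mean of at least 1 RPKM and the number of receptor genes per library, 17 values in 13 libraries lay farther from the rest of their group than Dixon's 95% limit on the log2(RPKM + 1) scale allows. Over the 45 groups examined chance would single out about 1 in 20, and values near 0 with rare high ones, as here, pass that limit more readily. The 14 genes were also taken by group mean, which a single high value can lift. Without the highest library the control mean was 0.0299 RPKM for Gabra3 and 0.313 for Grik5. The Day 15 mean was then 0.00555 RPKM for Grin2c, 0.157 for Gabrb2 and 0.190 for Grin3a. In these groups the choice of genes favoured an outlying value, so the rate of 1 in 20 does not apply to them.

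In controls these were Gria1 (7.18 RPKM), Gria3 (6.52) and Gria4 (6.36) in replicate 2, which also held 11 receptor genes at 1 RPKM or more where the next control held 6. They were further Gabra3 in replicate 8 (10.7 RPKM, next 0.0911), Grik5 in replicate 6 (35.8, next 1.86), Gabrb2 in replicate 1 (3.79, next 0.992), Grin3a in replicate 9 (1.06, next 0.233) and Grik3 in replicate 5 (1.02, next 0.405).

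At Day 5 they were Grik3 in replicate 1 (41.2 RPKM, next 2.54), Gabrb2 in replicate 7 (2.36, next 0.486) and Grin2c in replicate 4 (0.742, next 0.0301).

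At Day 15 they were Grin2c in replicate 5 (41.2 RPKM, next 0.0158), Gabrb2 in replicate 6 (33.3, next 0.661), Gria3 in replicate 7 (9.97, next 1.58), and Grin3a (11.9, next 0.459) and Gabra3 (0.109, next 0.0359) in replicate 2. Control replicate 2 thus stood apart in 3 AMPA genes, Day 15 replicate 2 in 2 genes, and each of the other 11 libraries in a single gene. The cause was not tested.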

How the results depend on the processing

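Under 42 alternative fits limma called 0 receptor genes in every comparison, and of 960 values of the 8 tested genes none passed, with a smallest adjusted p of 0.0844. Over all genes, calls ran from 0 to 597 at Day 5 (261 as reported), 0 to 38 at Day 15 (4) and 0 to 8 between the days (0). The signs of Grm3 in all 3 comparisons and of Grik3 and Gabbr1 at Day 5 held under the 40 alternatives in which signs were followed. These 40, which also gave the 960 values, leave out the 2 fits with both no filter and another scaling. In all 67 of the 960 values changed sign. The median number of receptor genes in controls, 3.5, became 7.5 at a level of 0.5 RPKM. Day 5 then had 5.5 and Day 15 had 7. After scaling to a common sum without Rn45s the medians were 6.5 in controls, 3 at Day 5 and 5 at Day 15. Controls were highest under both. Day 15 was highest at 2 RPKM (3, beside 2 and 2), and Day 5 was highest above 0 (37.5, beside 22.5 in controls and 29 at Day 15). Depth is unknown and sets a limit on every gene near 0. The cause of these shifts was not tested.

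Fits with a replicate block called 0 receptor genes and 349, 4 and 0 of all genes. Same-numbered libraries did not deviate together (20 pairs, r from -0.06 to 0.08), and 2 of 25 libraries correlated best with their own number. Where amplification drops transcripts at random, r near 0 cannot exclude a pairing, so whether the numbers pair the samples is not known.

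At Day 5, the change of Gria3 was -0.18, -0.37, -0.18 and -0.56 under upper-quartile scaling, quantile normalization, common-sum scaling and the covariate for detected genes, that of Gria4 was -0.21, -0.39, -0.20 and -0.32, and that of Grik2 was -0.36, -0.46, -0.33 and -1.04. Without libraries of over 50% Rn45s Gria4 was at -0.15, and with library weights Grm5 was at 0.0026. Within replicate numbers 1 to 6 Gria2 was at 0.16 and Grik2 at -0.037, and within 7 to 10 Grm5 was at 0.28. At Day 15, Gabbr1 was at -0.14 with a pseudocount of 0.1, at -0.10, -0.19 and -0.18 under the 3 scalings, at -0.018 with library weights, at -0.39 within numbers 7 to 10 and at -0.55 without Day 15 replicates 3 and 6. Gria2 was at -0.068 under common-sum scaling, -0.15 with the covariate and -0.32 within numbers 1 to 6, where Gria3 was at -0.23. Grik2 was at 0.017 with library weights, and within numbers 7 to 10 Grik2 was at 0.35, Gria4 at -0.28, Grik3 at -0.045 and Grm5 at 0.39. Between the days, Grm5 was at 0.14, 0.25 and 0.080 under the 3 scalings, 0.13 with the covariate and 0.11 within numbers 7 to 10, where Gria4 was at -0.49. With the covariate Grik2 was at 0.41 and Grik3 at 0.013. Within numbers 1 to 6 Gria2 was at -0.48 and Gria3 at -0.63, and without Day 15 replicates 3 and 6 Gabbr1 was at -0.056.

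Leaving out 1 library at a time changed the sign of 23 of 600 values. At Day 5 Gria2 then ran from -0.36 to 0.11, Gria3 from -0.0014 to 0.45, Gria4 from -0.10 to 0.36, Grik2 from -0.21 to 0.37 and Grm5 from -0.23 to 0.11. At Day 15 Gabbr1 ran from -0.23 to 0.48, Gria2 from -0.039 to 0.37 and Gria3 from -0.054 to 0.59. Between the days Gria3 ran from -0.26 to 0.34, Gria4 from -0.093 to 0.63 and Grik3 from -0.73 to 0.075.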
